A study of Mus musculus with 14 samples.

Results

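Enpp6 and 5 enzymes of myelin lipid synthesis, Ugt8a, Fa2h, Gal3st1, Cers2 and Elovl7, were followed across 14 Affymetrix arrays of mouse neural stem cell cultures that either kept or had lost the repressor Cic. The 6 genes are represented by 60 probesets that name them alone, of 269751 probesets and 23152 genes in all. A probeset is a group of probes within a stretch of a transcript, and the value of a gene is the median of its probesets in an array, on the log2 scale. The genes were selected by name with earlier results of these arrays known, in which Enpp6 and Ugt8a stood out between the genotypes. Their differences between genotypes, and how the EGF response differed between genotypes, are therefore given as descriptions without a test. All 6 genes passed the filter on dim genes, a mean log2 level of at least 4.40.

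The cells came from the subventricular zone at postnatal day 4, and each of 7 cultures, called clones in the labels, was derived from a different animal and exposed to an adenovirus carrying Cre recombinase. Clones 1 to 4 were wild type for Cic (Cic+/+) and clones 5 to 7 carried Cic flox/flox alleles and are labelled Cic-/-. Every clone was kept in NeuroCult proliferation medium for 24 h in both media, with EGF added or left out, which makes 4 groups with 4 Cic+/+ arrays or 3 Cic-/- arrays each. Deletion took place in the dish and not in a chosen cell type, so the model does not show what loss of Cic does in oligodendrocytes of an animal.

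Myelin is a membrane rich in lipid, and oligodendrocytes build it with enzymes of which some are little used by most other cells. Elongases such as Elovl7 lengthen fatty acids, ceramide synthase 2 (Cers2) joins very long acyl chains to the sphingoid base, and Fa2h hydroxylates the fatty acid at the second carbon. Ugt8a then adds galactose to make galactosylceramide, and Gal3st1 adds sulfate to make sulfatide. Enpp6 is a phosphodiesterase that releases choline-containing products from glycerophosphocholine and related lipids and marks oligodendrocytes that are just forming.

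Cic itself lay between 9.18 and 9.69 in the 8 Cic+/+ arrays and between 7.04 and 7.67 in the 6 Cic-/- arrays, so the genotypes were apart in every array. This median spans all probesets of Cic and does not show how complete the deletion was. Array medians ran from 6.49 to 6.54. Clone 4 stood apart in Xist, the RNA of the inactive X chromosome, at 3.83 and 4.73 against 11.96 to 12.57 in the 12 other arrays. The 4 EGF responses called below in Cic+/+ also passed in limma without clone 4, with adjusted p from 6.1e-05 for Enpp6 to 0.00642 for Ugt8a and Gal3st1. The list mean of neural stem cell markers was high throughout, at 10.30 to 10.87 over 10 genes, among them Nes, Sox2, Sox9 and Vim. Single genes differed. Prom1, named after its values were seen, had group means of only 4.90 to 5.42. In Cic+/+ Nes was at 10.18 with EGF and 8.86 without. That difference, 1.32 ± 0.40, was not called by limma (adjusted p = 0.16) but passed in a fit blocked by clone (0.0226).

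The regions just upstream of the genes were read because 4 of the genes moved together with EGF. In the RefSeq windows used here (GRCm38.p6) 5 of the 6 genes were matched, with 8 starts, and Fa2h was not. The 250 bases before each start were searched on both strands. The words were the CIC octamers TGAATGAA and TGAATGGA and the SOX core words ACAAAG and AACAAT. A CIC octamer was found in 1 of the 8 windows and a SOX word in 1. The windows of Gal3st1 at chr11:3983386-3983635 and chr11:3983401-3983650 overlap over most of their length, so the 8 are not separate sequences. Over all 32851 windows the shares were 2.07% and 24.0%. The window of Enpp6 lies on the plus strand at chr8:46986637-46986886 and that of the third listed start of Gal3st1 on the plus strand at chr11:3989683-3989932. These are the windows with a match, shown 5′ to 3′ with the matching word in capitals, a SOX word in Enpp6 and a CIC octamer read on the other strand in Gal3st1.
Enpp6: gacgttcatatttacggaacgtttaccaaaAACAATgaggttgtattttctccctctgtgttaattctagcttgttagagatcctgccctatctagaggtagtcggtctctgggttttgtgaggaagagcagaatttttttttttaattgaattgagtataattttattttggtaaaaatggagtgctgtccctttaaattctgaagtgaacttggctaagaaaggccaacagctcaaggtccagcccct
Gal3st1: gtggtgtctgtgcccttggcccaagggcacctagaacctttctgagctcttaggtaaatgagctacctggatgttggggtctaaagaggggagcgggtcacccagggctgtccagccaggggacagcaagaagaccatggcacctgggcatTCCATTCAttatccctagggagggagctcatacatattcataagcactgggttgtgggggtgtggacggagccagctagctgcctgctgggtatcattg
A match is a string of letters and not evidence of binding. The windows differ in base composition, with 38.4% G and C in that of Enpp6 and 76.8% in that of Ugt8a.

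Enpp6 was high in a single group, Cic+/+ cells without EGF. Its log2 level there was 8.52, 8.49, 8.67 and 8.34 in clones 1 to 4. With EGF the same clones lay at 5.21, 4.97, 4.70 and 5.07. The 4 arrays without EGF thus lay far above the 4 with it. In Cic-/- cells Enpp6 was at 4.32, 4.55 and 4.76 with EGF in clones 5 to 7 and at 3.99, 4.85 and 4.83 without. All of these are close to the dim limit of 4.40, so folds against them are not exact. By group mean the order was Cic+/+ without EGF (8.51 ± 0.13, SD, n = 4), Cic+/+ with EGF (4.99 ± 0.21, n = 4), Cic-/- without EGF (4.56 ± 0.49, n = 3) and Cic-/- with EGF (4.54 ± 0.22, n = 3). The arrays of the last 3 groups overlap, and the Cic-/- groups differ by less than their spread.

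Ugt8a, which makes galactosylceramide, took graded levels. In Cic+/+ it was at 8.54, 9.21, 9.22 and 9.59 without EGF and at 7.30, 7.13, 7.41 and 7.88 with it. In Cic-/- it was at 6.96, 7.16 and 6.50 without EGF and at 6.23, 5.94 and 6.10 with it. Within each medium, and within each genotype, the 2 groups did not overlap. Clone 6 without EGF (7.16) reached just past the lowest Cic+/+ array with EGF (7.13), the only overlap between any 2 groups.

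Gal3st1, which makes sulfatide from the product of Ugt8a, was highest in the same group as Enpp6 and Ugt8a. Its level without EGF was 7.73, 8.29, 8.35 and 8.23 in Cic+/+ and 6.80, 6.93 and 6.28 in Cic-/-. With EGF it was 6.13, 6.12, 6.50 and 6.72 in Cic+/+ and 6.25, 5.98 and 5.60 in Cic-/-. Without EGF the genotypes were apart, while with EGF their arrays overlapped.

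Fa2h, the hydroxylase, differed between media in both genotypes. Without EGF it was at 8.82, 9.34, 9.47 and 8.48 in Cic+/+ and at 7.65, 8.11 and 7.41 in Cic-/-. With EGF it was at 6.06, 5.59, 6.46 and 6.52 in Cic+/+ and at 6.56, 6.03 and 5.66 in Cic-/-. The genotypes shared a range with EGF and did not overlap without it, where the group means were 9.03 ± 0.46 (SD, n = 4) and 7.72 ± 0.35 (n = 3).

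Cers2 varied less between groups than the genes above, and Elovl7 more between clones. Cers2 stayed in a narrow range over all 14 arrays, with group means of 9.83 ± 0.15 and 9.71 ± 0.17 in Cic+/+ with and without EGF (SD, n = 4) and 9.45 ± 0.12 and 9.32 ± 0.06 in Cic-/- (n = 3). Elovl7 differed widely between clones of a group, from 5.79 in clone 7 to 7.92 in clone 5 among Cic-/- arrays with EGF. In Cic+/+ it was at 6.62, 6.64, 7.90 and 7.41 with EGF and at 7.58, 8.22, 9.04 and 8.68 without, so that the media overlap across clones although each clone was lower with EGF. Clone 7 held the lowest value of its group without EGF for Ugt8a, Fa2h, Gal3st1 and Elovl7, and clone 1 the lowest of its group for Ugt8a, Gal3st1 and Elovl7, but neither did so for Enpp6.

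**Figure D1:**
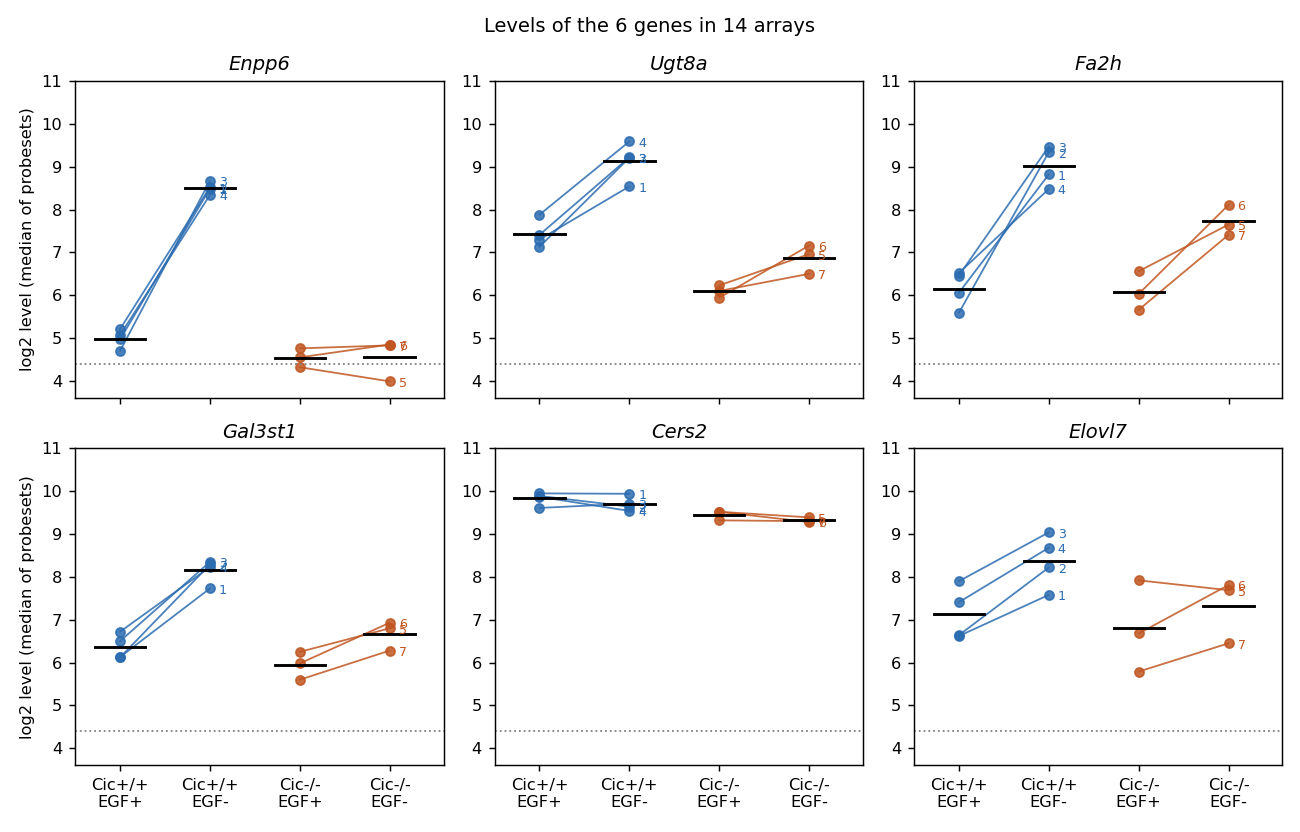
Log2 level of each gene (median of its probesets) in the 14 arrays, by group. Lines join the arrays of a clone, small numbers name the clone, black bars are group means and the dotted line is the dim limit of 4.40. Enpp6 sits above 8 in the 4 Cic+/+ arrays without EGF and near the limit in Cic-/-, while Cers2 is nearly level.

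The response to EGF in Cic+/+ cells asks which of these genes depend on the medium while Cic is present. With EGF 4 of the 6 genes fell. On the log2 scale the difference was -3.52 ± 0.19 for Enpp6 (SE, 11.4-fold), -2.87 ± 0.27 for Fa2h (7.32-fold), -1.78 ± 0.21 for Gal3st1 (3.43-fold) and -1.71 ± 0.22 for Ugt8a (3.27-fold). Their limma adjusted p values over all 17364 genes tested were 4.97e-07, 0.000268, 0.00101 and 0.00259. The fall was seen in 4 of 4 clones for each of them, with no overlap between media. Of all genes tested 0.898% were called in either direction, 156 genes, 0.593% fell, and 4.94% were lower without overlap between the arrays.

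Among the other members, Elovl7 was at -1.24 ± 0.46, lower in 4 of 4 clones but not past the threshold (adjusted p = 0.263). In the fit blocked by clone it passed (adjusted p = 0.0469), where limma called 897 genes, 5.17% of those tested. Cers2 was at 0.12 ± 0.12 (adjusted p = 0.759, 95% interval of the difference -0.15 to 0.39). Over the 6 genes the median difference was -1.75, against 0.00 over all genes tested. Without clone 2 Ugt8a no longer passed (-1.59, adjusted p = 0.0643) and the number of genes called in all went from 156 to 17. It was 34 without clone 3, 38 without clone 4 and 98 without clone 6. These tests share the arrays without EGF with the genotype difference through which the genes were noticed, so they are not independent of that choice.

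In Cic-/- cells Enpp6 did not respond to EGF detectably, at -0.02 ± 0.22 (limma adjusted p = 0.991), with a 95% interval from -0.49 to 0.45. By clone its difference was 0.33, -0.30 and -0.08 in clones 5 to 7. Fa2h was at -1.64 ± 0.31, lower with EGF in 3 of 3 clones, at -1.09, -2.07 and -1.75. It missed the threshold (adjusted p = 0.0518) and was called in the fit blocked by clone, at 0.0076. Ugt8a and Gal3st1 were at -0.78 ± 0.26 and -0.73 ± 0.24 (adjusted p = 0.298 and 0.296), also lower in 3 of 3 clones. Their 95% intervals ran from -1.34 to -0.23 and from -1.24 to -0.22. The media did not overlap for Ugt8a, Fa2h and Gal3st1, 3 of the 6, where 6.41% of all genes were lower without overlap.

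Cers2 was at 0.13 ± 0.14 and Elovl7 at -0.52 ± 0.53 in the same comparison (limma adjusted p = 0.844 and 0.829). Without clone 5 Elovl7 was at -0.89 and without clone 6 at -0.22. In all, limma called 0 of the 6 genes, 3 had an unadjusted p under 0.05, and 1 was called with the clone as a block. Over all genes 33 were called without the block, 0.19%, and 361 with it, 2.08%. The 33 became 0 by limma without clone 5 and 0 without clone 6 (1451 and 1043 at an unadjusted p under 0.05), 18 without clone 7, 19 without clone 4, 21 without clone 2 and 68 without clone 1.

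Between the genotypes the clearest separation was in cells without EGF, the contrast in which Enpp6 was noticed. Enpp6 was lower in Cic-/- by a difference of -3.95 ± 0.21 (15.4-fold), Ugt8a of -2.27 ± 0.24 (4.82-fold), Gal3st1 of -1.47 ± 0.22 (2.78-fold), Fa2h of -1.31 ± 0.29 (2.47-fold), Elovl7 of -1.06 ± 0.50 and Cers2 of -0.39 ± 0.13. Genotypes were fully apart for 5 of the 6, all but Elovl7. Over all genes 5.18% were lower without overlap, 0.553% were called in either direction and 0.426% were called lower, against 3 members called, Enpp6, Ugt8a and Gal3st1. Nothing is read from these counts, since this contrast chose the genes. In bulk RNA fewer cells of a type and less RNA per cell cannot be told apart.

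With EGF the same genes lay closer together. The differences were -1.34 ± 0.24 for Ugt8a, -0.45 ± 0.21 for Enpp6, -0.43 ± 0.22 for Gal3st1, -0.38 ± 0.13 for Cers2, -0.34 ± 0.50 for Elovl7 and -0.07 ± 0.29 for Fa2h. Ugt8a and Cers2 were without overlap between genotypes, against 5.91% of all genes in that direction. Of all genes 0.317% were called and 0.242% were called lower, with 1 member among them, or 0 on leaving out clone 2, 3, 4, 5, 6 or 7. Nothing is read from this count either. The value of Elovl7 rests on single clones, turning to 0.16 without clone 7 and reaching -0.90 without clone 5, and in cells without EGF it was at -0.63 without clone 7.

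The difference in EGF response, Cic-/- minus Cic+/+, was 3.50 ± 0.29 for Enpp6, from the absence of a detectable response in Cic-/- against a fall in Cic+/+. It was 1.23 ± 0.42 for Fa2h, 1.05 ± 0.32 for Gal3st1, 0.93 ± 0.34 for Ugt8a, 0.72 ± 0.71 for Elovl7 and 0.01 ± 0.19 for Cers2. For Elovl7 it was 0.35 without clone 5. These values are the differences of both genotype contrasts through which the genes were chosen, so nothing is read from the 1 member among the 0.00576% of all genes that were called.

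**Figure D2:**
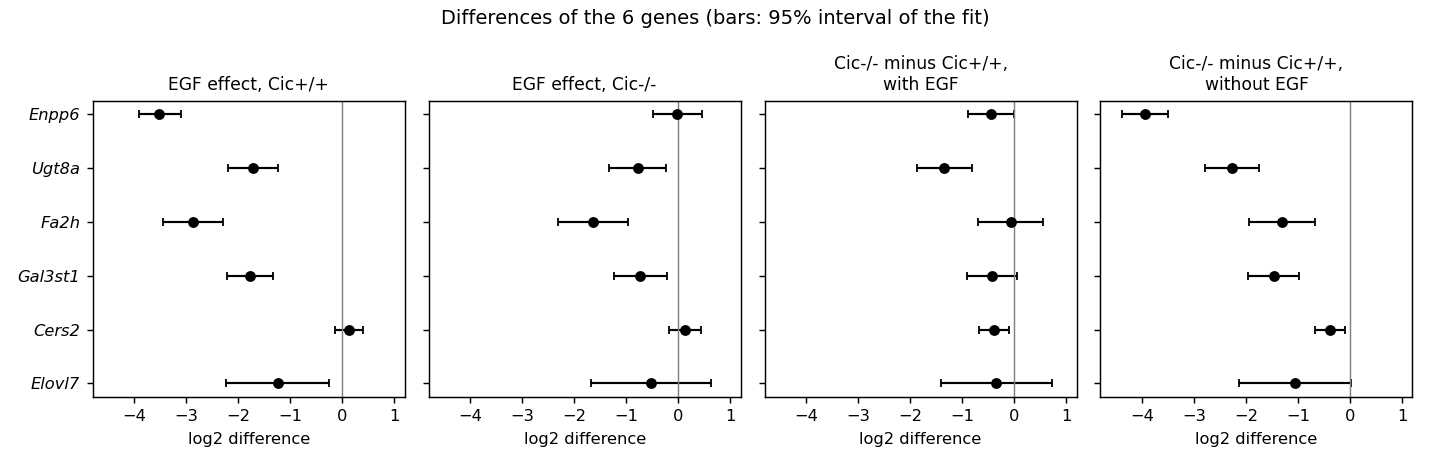
Log2 differences of the 6 genes in 4 comparisons, with bars for the 95% interval of the limma fit. EGF effects are levels with EGF minus without. Enpp6 lies at -3.52 in Cic+/+ and at -0.02 in Cic-/- for EGF, and at -0.45 and -3.95 between genotypes with and without EGF.

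The probesets of a gene did not all tell the same story. For Enpp6, 10 of 12 probesets passed the probeset limit of 4.89 in mean level and were tested (limma, adjusted over 175315 probesets, of which 0.291% were called for EGF in Cic+/+). Of these, 5 lay above the limit in Cic+/+ without EGF alone, passed through that group and had to differ, so their calls and the size of their differences support nothing. Another 4 that were above it in Cic+/+ with EGF too fell, 17501063 at -2.90, 17501068 at -2.17, 17501073 at -3.85 and 17501074 at -3.87. The other 3 probesets were 17501070, 17501071 and 17501072, at -0.41 ± 0.36, -0.76 ± 0.53 and -0.11 ± 0.42. They are consecutive in number, and the last 2 were not tested. The same 3 were at -0.49, -0.68 and -0.15 between genotypes without EGF. There 6 of the 9 others lay under the limit in Cic-/-, and those that did not, 17501063, 17501068 and 17501073, were at -3.72, -2.35 and -3.99. Probeset 17501063 lay at the limit itself in Cic-/- without EGF, with a mean of 4.89, so its difference is not clear of the limit. For EGF in Cic-/- 0 of the 10 tested probesets of Enpp6, and 0 of the 56 tested of all 6 genes, were called, where 0.053% of all probesets were. With the clone as a block it was 4 of the 56.

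For Fa2h, 9 of 10 probesets were lower with EGF in Cic+/+ and 8 were called. The ninth, 17513094, was at -1.97 ± 0.45 and missed the threshold (limma adjusted p = 0.0954). Probeset 17513103, the brightest, was at 0.19 ± 0.22, and it was at 0.36 ± 0.23 between genotypes without EGF where the other 9 lay between -0.82 and -1.51. For Ugt8a the brightest probeset also stood apart. Probeset 17410121 was at -0.31 ± 0.20 for EGF in Cic+/+, against -1.19 to -2.03 in the other 6, and at -0.80 between genotypes without EGF against -1.66 to -2.95. Taken alone, the 7 probesets of Ugt8a gave 1 call in Cic+/+, 17410116 (limma adjusted p = 0.0497). If the brightest probeset stood for each gene, neither Fa2h nor Ugt8a was called in Cic+/+ as a gene (adjusted p = 0.764 and 0.534).

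Gal3st1 has 5 probesets, of which 2 fell with EGF in Cic+/+ (-2.06 at 17246704 and -1.78 at 17246705). The others were at -1.38, -0.51 and -0.23, and the last of these lies under the probeset limit. The gene value therefore rests largely on the middle probeset. In Cers2, 15 of 16 probesets are numbered together and 1, 17407797, apart from them. That probeset was at 0.44 with EGF and 0.42 without for Cic-/- minus Cic+/+, opposite in sign to the gene value. Without EGF 4 of the 16 had the opposite sign. In Elovl7, 9 of 10 probesets were lower with EGF in Cic+/+, between -1.04 and -2.14, and 17289718 was at 0.26 ± 0.36. No tested probeset of Cers2 or Elovl7 was called by limma.

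**Figure D3:**
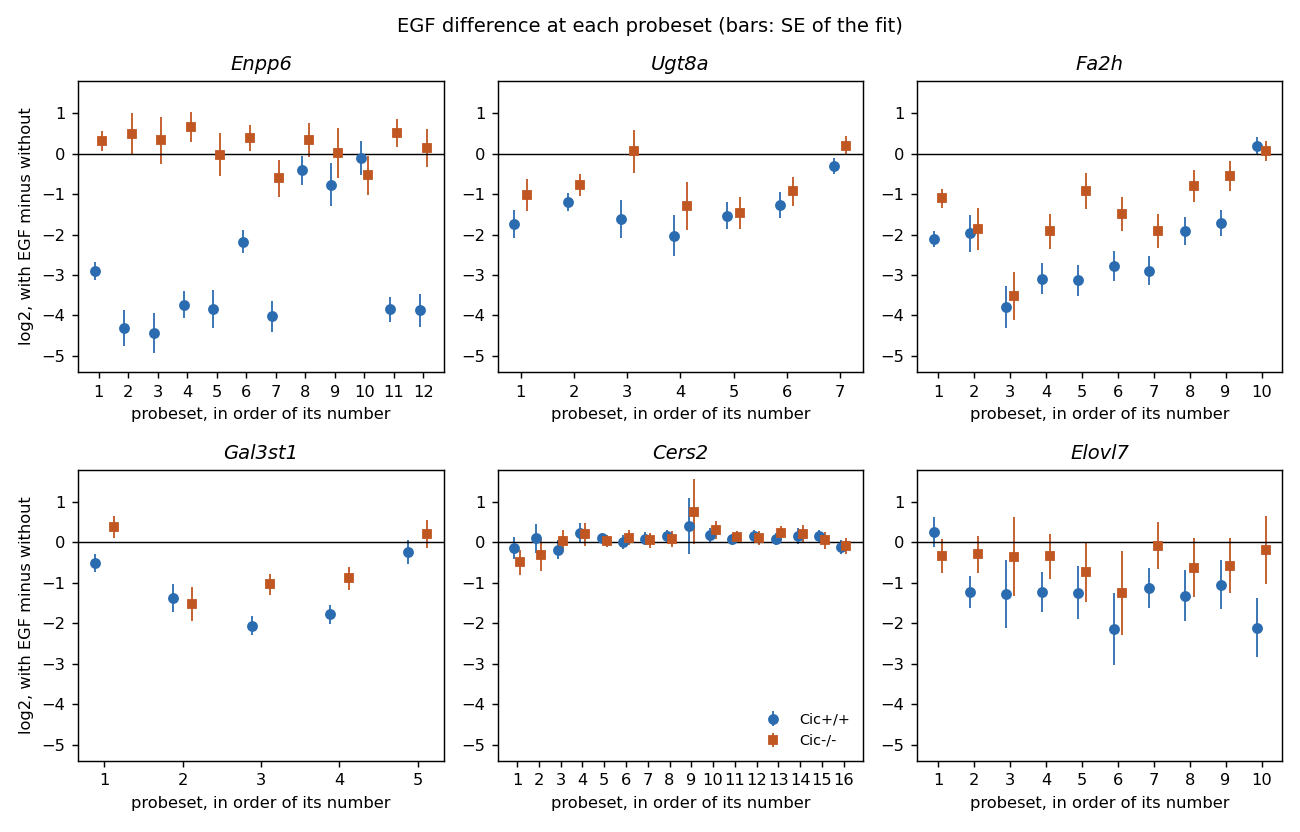
Log2 difference, with EGF minus without, at each probeset of the 6 genes, in Cic+/+ (circles) and Cic-/- (squares), in the order of the probeset numbers, with bars for the SE. Probesets 8 to 10 of Enpp6, 10 of Fa2h and 7 of Ugt8a lie near 0 in Cic+/+ while their neighbours are lower.

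Genes of the surrounding pathways were set beside the 6, from 7 lists of 93 genes in all, of which 82 were tested. In Cic+/+, 2 of the 82 fell with EGF, 0 rose, and 21 were under 0.05 before adjustment. Of all genes 0.593% fell, and 12.5% were under 0.05 before adjustment against 25.6% of the 82. The median difference was -0.10. Both that fell come from the list written for choline and ethanolamine phospholipids. Gdpd2, a glycerophosphodiester phosphodiesterase, was at -1.19 ± 0.23 (limma adjusted p = 0.0219), and Chpt1, which makes phosphatidylcholine, at -0.79 ± 0.17 (adjusted p = 0.0431). Both lost their call on leaving out clone 1, 2, 3 or 4, Gdpd2 with an adjusted p up to 0.24 and Chpt1 up to 0.414, and Chpt1 also without clone 6 (0.0847). With the clone as a block 8 fell and 1 rose. Beside those named here and below, and named after their values were seen, these were Slc44a1, Elovl5 and Sptssa, which fell, and Acsl4, which rose.

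In Cic-/- limma called 0 of the 82 for EGF, with 11 at an unadjusted p under 0.05, 13.4% against 9.8% of all genes. Gdpd2 and Chpt1 were at -0.93 ± 0.26 and -0.83 ± 0.19 there (adjusted p = 0.212 and 0.112). Blocking by clone gave both a call (0.0294 and 0.0209), and with it 3 of the 82 fell, these and Pex7, and Sgms2 rose. Between genotypes limma called 0 of 82 with EGF (8 at an unadjusted p under 0.05) and 0 of 82 without (9), with or without the block. The 8 and 9 are 9.76% and 11.0%, near the 10.6% and 10.8% of all genes. None was called for the difference in EGF response either, with 0 at an unadjusted p under 0.05.

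By list, no member passed in Cic+/+ without the block among 10 sphingolipid backbone genes (median -0.02 to 0.21 over the EGF and genotype comparisons), 17 of galactolipid supply and turnover, 12 of other sphingolipid head groups, 16 of very long chain fatty acids, 6 other Enpp genes and 5 of plasmalogen synthesis. In galactolipid supply and turnover, 15 of 17 were negative for EGF in Cic+/+ with a median of -0.23, led by the glycolipid transfer protein Gltp at -0.67 ± 0.17 (adjusted p = 0.0973) and by Galt at -0.57 ± 0.22 (adjusted p = 0.293). Blocking by clone gave Gltp a call (adjusted p = 0.0134). Among very long chain fatty acid genes the largest differences were those of Abcd2, a peroxisomal transporter, at -1.51 ± 0.43 (adjusted p = 0.135) and Hacd4, a dehydratase of elongation, at -1.12 ± 0.32 (adjusted p = 0.137). Both passed with the block (0.019 and 0.0169).

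Of the other Enpp genes, Enpp2, which encodes autotaxin, was at -1.25 ± 0.48 in Cic+/+ and -1.28 ± 0.55 in Cic-/- (adjusted p = 0.283 and 0.451). Its group means in Cic+/+ and Cic-/- were 10.40 and 10.47 without EGF and 9.16 and 9.19 with it. Among the other ceramide synthases, Cers4 was at -0.74 ± 0.25 between genotypes with EGF and -0.63 ± 0.25 without (limma adjusted p = 0.292 and 0.374).

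**Figure D4:**
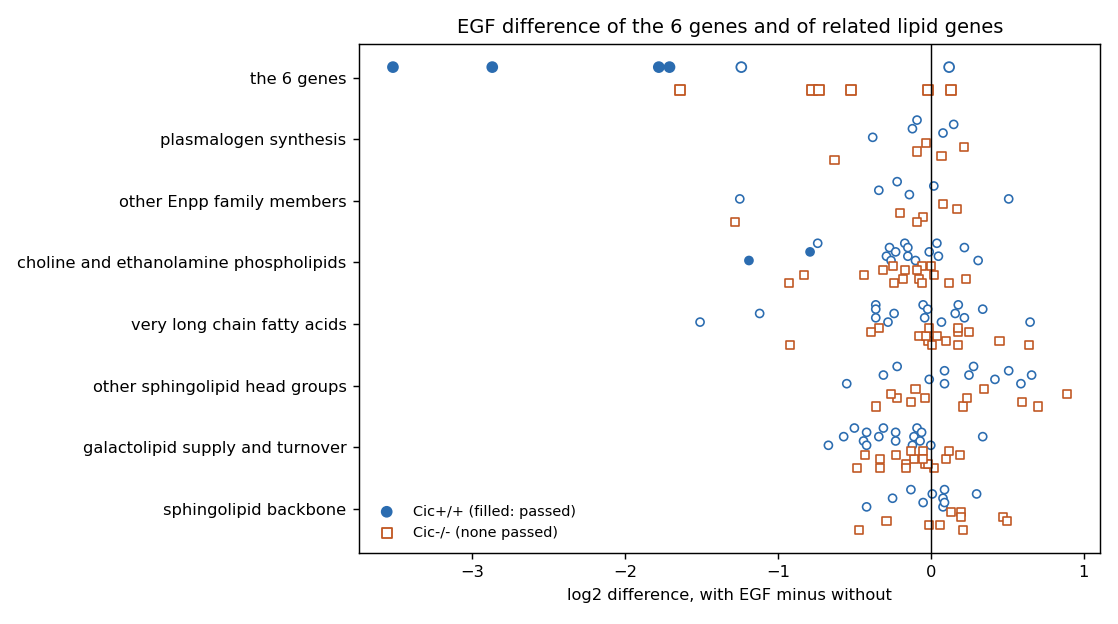
Log2 difference, with EGF minus without, of the 6 genes and of 82 related lipid genes in 7 lists, in Cic+/+ (circles) and Cic-/- (squares). Filled symbols passed, 4 of the 6 genes and 2 of the choline and ethanolamine phospholipid list in Cic+/+ and none in Cic-/-.

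Some markers of oligodendrocytes were highest in the same group as Enpp6. The mean level of 9 myelinating oligodendrocyte genes was 6.79 to 7.11 in Cic+/+ without EGF, against 5.93 to 6.07 in Cic+/+ with EGF, 5.66 to 5.99 in Cic-/- with EGF and 5.68 to 5.82 in Cic-/- without. With EGF 4 of the 9 fell in Cic+/+ by limma, Mbp (-1.92, adjusted p = 0.00734) and Mag (-2.43, adjusted p = 0.000364), and, named after their values were seen, Cldn11 (-1.24, adjusted p = 0.0254) and Myrf (-1.68, adjusted p = 0.00101). With the clone as a block Cnp fell too (-0.89, adjusted p = 0.0199), while Opalin was at 0.01 and Mal at 0.10. In Cic-/- 0 of 9 were called, with 3 at an unadjusted p under 0.05 by limma, as were 9.8% of all genes. The directions there were mixed, with 5 of the 9 negative. Named after their values were seen, Opalin (1.00 ± 0.44) and Mal (0.42 ± 0.18) were higher with EGF in Cic-/-, and Mobp (-0.36 ± 0.14) lower. For the difference in EGF response limma called 0 of 9 without the block. With the block it called Mag (2.41, adjusted p = 0.00289) and Myrf (1.54, adjusted p = 0.0389). The part of the myelinating oligodendrocyte markers in the levels of the 6 genes was not tested. Mog was at -0.37 (adjusted p = 0.53). Newly formed oligodendrocyte genes, 5 measured, had list means of 8.43 to 8.89 without EGF and 7.50 to 7.87 with it in Cic+/+, and of 8.02 to 8.53 and 7.47 to 7.67 in Cic-/-. Gpr17 had the largest EGF difference, -2.71 in Cic+/+ and -2.46 in Cic-/-, so these list means rest largely on it. Rras2, named after its values were seen, was at 0.12 and 0.23, in the other direction.

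The list mean of oligodendrocyte progenitor genes ran differently from that of the myelin genes. Over 7 genes it was 10.10 to 10.47 in Cic+/+ with EGF and 10.23 to 10.55 without, and 9.25 to 9.70 and 9.83 to 10.56 in Cic-/-. Not every gene of the list did so. Sox10 had its highest group mean in Cic+/+ without EGF, 8.20, against 7.22 with EGF. In Cic-/- it was at 6.86 without EGF and 5.70 with it. Limma called no member for EGF in either genotype (1 and 2 at an unadjusted p under 0.05). With the clone as a block Pdgfra fell in Cic-/- (-1.80, adjusted p = 0.00978). Pdgfra was lower in Cic-/- with EGF (-2.61, limma adjusted p = 0.0082). The list mean of astrocyte genes was also higher without EGF, at 10.16 to 10.65 against 9.01 to 9.77 in Cic+/+ and 9.57 to 10.06 against 9.09 to 9.26 in Cic-/-. For EGF 6 of 6 were negative in Cic+/+ and 5 of 6 in Cic-/-. Gfap was at -0.57 ± 0.71 in Cic+/+ and, in the other direction, at 0.46 ± 0.82 in Cic-/- (limma adjusted p = 0.816 and 0.918). Of 6, 3 fell with EGF in Cic+/+, Aqp4, S100b and Gja1, the last named after its values were seen, and 0 in Cic-/- (4 at an unadjusted p under 0.05), where Aqp4 passed with the clone as a block (-1.72, limma adjusted p = 0.00713). Neuroblast and neuron genes had list means of 7.44 to 7.63 with EGF and 7.71 to 7.86 without in Cic+/+, and of 7.22 to 7.35 and 7.86 to 8.05 in Cic-/-, with no overlap between media. Of these 6, 4 were negative for EGF in each genotype, with a median of -0.16 in both. Dcx had the largest difference, so the list means rest largely on it. It was at -1.22 in Cic+/+ (limma adjusted p = 0.274) and at -2.74 in Cic-/- (adjusted p = 0.0518, or 0.00393 with the clone as a block). Map2 was at 0.11 in Cic+/+ and Rbfox3 at 0.13 in Cic-/-. Microglia and endothelial lists stayed between 4.45 and 5.25 in every array, near the dim limit, and the ependymal list between 5.43 and 5.94. Of the Schwann cell list 2 of 4 genes were measured, Egr2 and Pmp22, with a mean of 6.80 to 8.19. Egr2 was at 1.06 ± 0.36 for EGF in Cic+/+ (limma adjusted p = 0.213, or 0.045 with the clone as a block).

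**Figure D5:**
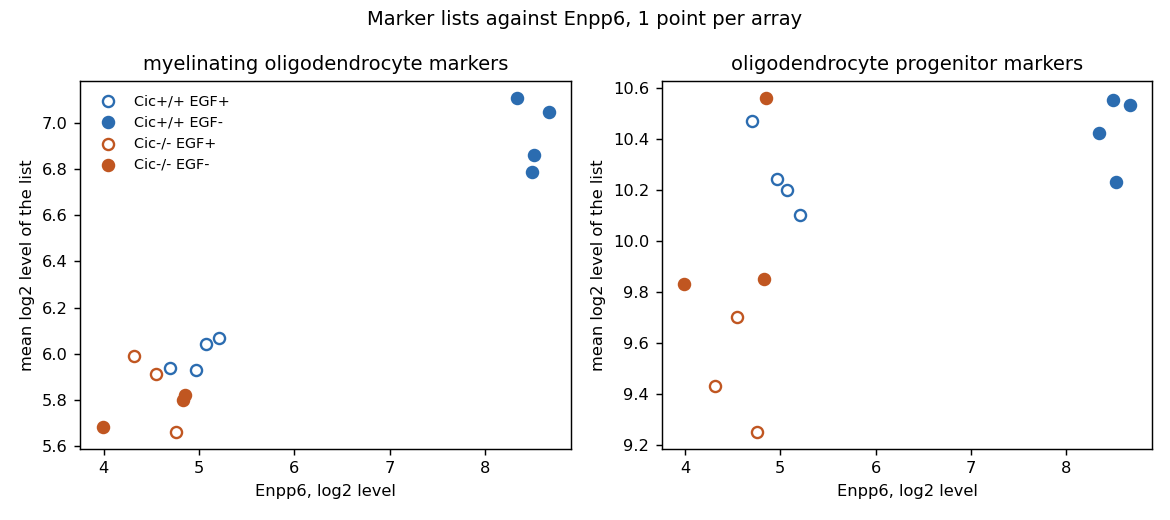
Mean log2 level of 9 myelinating oligodendrocyte genes (left) and 7 oligodendrocyte progenitor genes (right) against the log2 level of Enpp6, 1 point for each of 14 arrays. The 4 Cic+/+ arrays without EGF stand apart on both axes at left, and only on that of Enpp6 at right.

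The genes most like Enpp6 over the 14 arrays, by Pearson r among those tested, were Cdk18 (0.963), Cbln2 (0.958), 9630013A20Rik (0.954), Mag (0.945) and 1700047M11Rik (0.941). These values describe arrays that fall into groups, so no p is given. All 5 had their highest group mean in Cic+/+ without EGF, for example Cdk18 with 7.30 ± 0.37 (SD, n = 4) there and 5.84 ± 0.12, 5.45 ± 0.16 and 5.37 ± 0.23 in Cic+/+ with EGF, Cic-/- with EGF and Cic-/- without. In the same ranking of 17363 genes Ugt8a stood at place 16, Gal3st1 at 17, Fa2h at 69, Elovl7 at 637 and Cers2 at 2753.

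The other members each had different nearest genes. Ugt8a was most like Mbp (0.951), Angptl4 (0.94) and Chchd10 (0.939), and Gal3st1 most like Sfxn5 (0.968), Agpat3 (0.954) and Nfasc (0.952). For Fa2h they were Shisal1 (0.946), the fatty aldehyde dehydrogenase Aldh3a2 (0.946) and Gstm1 (0.937). Elovl7 was nearest to Cadm4 (0.953), Pygb (0.944) and Aldh2 (0.944). Cers2 was nearest to Pex14 (0.904), Sft2d1 (0.903) and Dync1h1 (0.899), whose levels, like its own, were set apart by genotype more than by medium. Sft2d1, for example, was at 9.59 ± 0.16 and 9.40 ± 0.14 in Cic+/+ with and without EGF (n = 4) and at 8.99 ± 0.16 and 8.61 ± 0.14 in Cic-/- (n = 3).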

How the data were processed

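The deposited table holds log2 values per probeset, made by the authors with RMA, per the submitters' processing notes. The array annotation names genes only, and no genome build is given in the sources used here. All 14 arrays were used. Of 269751 probesets, 233753 carry 1 symbol, and only these entered gene values. Old symbols were updated through the RefSeq table (Cers2 is Lass2 on the array). The lowest 25% of genes by mean level were left out, which left 17364.

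Genes, and in a separate fit probesets, were compared by limma 3.58.1 (R 4.3.3), fitting 4 group means over all arrays, Benjamini-Hochberg adjustment over all features and a threshold of 0.05. Python 3.11.15 drew the figures. The procedure was tested on simulated data. Arrays of a clone come from the same animal, and their deviations from group means correlated at 0.156 to 0.616. Results are therefore also given with the clone as a block where it changed the call of a member or a named list gene. The number of arrays limits the precision.

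The members and lists were chosen with earlier results of these data known. Beyond the members, up to 6 passing genes of a list and comparison are named (up to 2 of the largest differences where none passed), the first 4 markers of a list, and the 5 or 3 most alike genes. Of 93 pathway genes 88, and of 62 marker genes 57, could be matched, and the others were not analysed here. The alternatives were other summaries of the probesets, other filters on dim genes, centred or quantile normalized arrays, a trended robust prior, the clone block and leaving out each clone. A median over probesets past the probeset limit was added after seeing the data.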

Additional observations from a re-analysis of the deposited data

Results flagged for a closer look

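The EGF effect of Enpp6 differed between the genotypes, by 3.50 ± 0.29 on the log2 scale (Cic-/- minus Cic+/+, 95% interval 2.88 to 4.12). It is listed because limma called Enpp6 alone of the 6 genes for this difference. The intervals of the others were 0.34 to 2.12 for Fa2h, 0.37 to 1.73 for Gal3st1 and 0.2 to 1.66 for Ugt8a. For Elovl7 the interval was -0.79 to 2.23 and for Cers2 -0.4 to 0.42. All 6 genes were chosen with genotype differences known, so nothing is read from the call or from where the intervals lie. The values are a description and not a test. In the 12 groups of 4 arrays examined for the 6 genes, all of them Cic+/+, no array stood apart from its group. The Cic-/- groups of 3 arrays were not examined in this way. In them Enpp6 without EGF was at 3.99 in clone 5, against 4.85 and 4.83 in clones 6 and 7.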

How the results depend on the processing

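The fall of Enpp6 and Gal3st1 with EGF in Cic+/+ kept its call in every alternative in which the gene was tested. Enpp6 is left out by the stricter dim filter. With the brightest probeset Fa2h turned to 0.19 (adjusted p = 0.764) and Ugt8a was at -0.31 (0.534), which left 2 members called, since the value is then that of the flat probeset. Gdpd2 and Chpt1 lost their call there too (0.335 and 0.135), and Chpt1 with quantile normalization (0.0509). The cause of the other changes was not tested. Fa2h in Cic-/- passed with the mean over probesets (-1.40, 0.0323), stricter filter (0.0458), centring (0.0486), quantile normalization (-1.65, 0.0446), trended prior (0.0477) and replicate block (-1.64, 0.0076), 1 member called in each. The replicate block also called Elovl7 in Cic+/+ (-1.24, 0.0469) and 4 member probesets in Cic-/- in place of 0, and changed no other call of a member.

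As descriptions, the brightest probeset gave for Enpp6 0.23 and -2.35 between genotypes with and without EGF and 2.58 for the difference in EGF response, for Ugt8a -0.29, -0.80 and 0.51, for Fa2h 0.36 without EGF and -0.12, and for Cers2 -0.22 without EGF. The mean over probesets gave Enpp6 -3.28 without EGF and 3.04, Gal3st1 -0.87 and 0.62, and Cers2 -0.18 with and -0.17 without EGF. Over probesets past the limit the difference in EGF response was 3.84 for Enpp6 and 0.64 for Gal3st1. The members called for genotype with EGF and for the difference in EGF response were 0 with the brightest probeset, and the latter 0 with the stricter filter.

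Over all genes, counts of calls beyond 1.5 times the main one were, for EGF in Cic+/+ (156), 256 with the mean over probesets and 897 with the replicate block. For EGF in Cic-/- (33) they were 70 with the mean, 51 with the stricter filter, 50 with centring, 59 with quantile normalization, 361 with the replicate block and 50 with the trended prior. For genotype without EGF (96) the mean gave 170. For the difference in EGF response (1) the mean gave 2, the brightest probeset 0, the stricter filter 0 and the replicate block 7.

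Leaving out 1 clone at a time, calls ran from 17 to 217 for EGF in Cic+/+, 0 to 68 for EGF in Cic-/-, 19 to 60 and 53 to 125 for genotype with and without EGF, and 1 to 3 for the difference. Members called ran from 3 to 4, 0 to 0, 0 to 1, 3 to 3 and 1 to 1. Ugt8a ran from -1.87 to -1.59 for EGF in Cic+/+, and Enpp6 from -4.09 to -3.66 for genotype without EGF. Elovl7 ran from -0.89 to -0.22 for EGF in Cic-/-, -0.90 to 0.16 and -1.33 to -0.63 for genotype with and without EGF, and 0.35 to 1.02 for the difference, and Fa2h from -0.31 to 0.14 for genotype with EGF.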

Other observations

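Gpr17, a receptor of committed oligodendrocyte precursors, fell with EGF in both genotypes, unlike Enpp6. It was at -2.71 in Cic+/+ (limma adjusted p = 0.000536) and at -2.46 in Cic-/- (adjusted p = 0.013), with group means of 10.47 and 9.10 without EGF and 7.76 and 6.64 with it. The difference between the genotypes in its response, 0.25, did not pass (adjusted p = 1.0). Of the 5 measured genes of newly formed oligodendrocytes it was the 1 called without the clone block, and with the block Tcf7l2 was called too in Cic+/+ (-0.58, adjusted p = 0.0212).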
